A study of Mus musculus with 23 samples.

Results

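The Bcl2 family decides whether a cell opens its mitochondria and dies, and 9 of its genes were followed here through 23 mouse RNA libraries. They are the rows of the deposited count table with the symbols Bcl2, Bcl2l1, Mcl1, Bcl2l11, Bbc3, Bid, Bad, Bax and Bak1, and all 9 were found among 22488 gene symbols. The rule uses the symbols alone and no measured value, but the members were chosen with earlier results of these data known. Levels are given as CPM (the count of a gene over the total of its library, times 1000000) or, where genes are compared with each other, as TPM (the count over the exon length, scaled so that a library sums to 1000000).

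In this family, survival proteins (Bcl2, Bcl-xL from Bcl2l1, and Mcl1) hold the pore-forming executioners Bax and Bak in check. BH3-only proteins carry stress signals to them: Bim (Bcl2l11), Puma (Bbc3), Bid and Bad bind the groove of the survival proteins, and some also engage Bax and Bak directly. Resting T cells are known to depend on Bcl2 and Mcl1 for survival, with interleukin-7 signalling as a main support, and on Bim for their removal.

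The study tested a low-input sequencing protocol in which oligo-dT primed cDNA is cut by the Tn5 transposase. T cells labelled as spleen T cells, named CD3+ in the design, gave 3 libraries each at 100, 500, 1000 and 10000 cells. Diluted RNA made up the other 11 libraries, of which 2 held 0.1 ng and groups of 3 held 0.5, 1 or 5 ng. All samples carry the strain label C57 and an age label of 6 to 18 weeks, with no genotype or treatment named. For the RNA the labels conflict: the design calls it spleen RNA and the sample characteristics name the macrophage cell line raw 264.7. The labels do not say whether replicates are separate animals, sorts or dilutions, so p-values measure only the spread between these libraries, which may be technical.

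The BH3 stretch is what all 9 genes share, and its coding sequence is shown here to let the members be compared. Each line gives 45 coding bases from GENCODE M21 (GRCm38), with the 18 bases of the core in capitals, from the codon that starts the motif to the GAT or GAC codon that ends it.
Bcl2: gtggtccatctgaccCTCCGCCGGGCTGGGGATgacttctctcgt
Bcl2l1: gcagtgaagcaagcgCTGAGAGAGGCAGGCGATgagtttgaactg
Mcl1: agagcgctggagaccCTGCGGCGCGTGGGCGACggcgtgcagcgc
Bcl2l11: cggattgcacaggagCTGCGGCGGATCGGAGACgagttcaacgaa
Bbc3: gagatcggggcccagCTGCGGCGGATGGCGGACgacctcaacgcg
Bid: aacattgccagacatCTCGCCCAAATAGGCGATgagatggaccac
Bad: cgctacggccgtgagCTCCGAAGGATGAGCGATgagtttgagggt
Bax: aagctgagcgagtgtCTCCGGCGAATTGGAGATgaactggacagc
Bak1: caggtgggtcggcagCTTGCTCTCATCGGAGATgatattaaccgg
All 9 cores differed. Bcl2l11 and Bbc3 shared 15 of 18 core bases, the most of any pair, and Bcl2l1 and Bak1 shared 7, the fewest. The core began at codon 194 of 331 in Mcl1, which has a long stretch before it, and at codon 63 of 192 in Bax.

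Library totals ran from 1737067 to 7908638 counts, and the low-input groups were the shallowest in the RNA (1737067 to 1962934 at 0.1 ng, 6841726 to 7908638 at 5 ng). Of the members, Mcl1 averaged 3028 counts per library, Bcl2 591, Bcl2l11 260, Bid 257, Bcl2l1 124, Bax 114, Bak1 114, Bbc3 57.6 and Bad 36.4. Markers of T cells took 0.393 to 0.684% of counts in the T cell libraries and 0.143 to 0.159% in the RNA, with 0 of 11 T cell markers at 0 counts in any library. In the RNA, neutrophil markers took 0.332 to 0.489%, erythroid markers 0.272 to 0.462% and macrophage markers 0.228 to 0.2835% of counts. Which label of the RNA holds was not tested. B cell markers took 0.709 to 0.736% in the RNA against 0.0269 to 0.0559% in 11 of the 12 T cell libraries. Replicate 3 at 100 cells stood apart from those 11, with 0.375% on B cell, 0.116% on macrophage and 0.191% on neutrophil markers and the lowest T cell share (0.393%). The 3 libraries at 500 cells had 0.276 to 0.298% on the 6 plasma cell genes, against 0.00941 to 0.0172% in the T cell libraries at 1000 and 10000 cells and replicates 1 and 2 at 100 cells.

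By TPM, Mcl1 was by far the most abundant of the 9 in both materials, and it was the highest by CPM too. The exon length counts all annotated exons of a gene, 9157 bases in Bcl2 and 1576 in Bax, whichever transcript is made. The order of the other members depends on these lengths. By CPM the T cell medians were 178 for Bcl2 and 32.3 for Bax. Its mean level was 502 ± 98.6 TPM over the 12 T cell libraries (SD) and 910 ± 62.5 TPM over the 11 RNA libraries, which made it 65.8% and 73.5% of the 9 members' summed TPM. In T cells Bax (61.9 ± 13.5 TPM) and Bcl2 (54.7 ± 7.12) came next and their ranges overlapped. They were followed by Bak1 (31.0 ± 10.8), Bcl2l11 (29.4 ± 6.52), Bid (28.8 ± 18.4), Bbc3 (25.2 ± 5.32), Bcl2l1 (15.7 ± 5.06) and Bad (10.6 ± 5.02), and each neighbour in this order overlapped the next. Without replicate 3 at 100 cells, where Bid was at 78.7 TPM, the mean of Bid was 24.2 ± 9.95 TPM (n = 11) and lay below that of Bbc3 (25.7 ± 5.26). That of Mcl1 was then 483 ± 79.6 TPM. In RNA the second place belonged to Bid (82.4 ± 10.4 TPM), ahead of Bax (62.0 ± 8.96), Bcl2 (53.9 ± 6.91), Bak1 (41.7 ± 9.85), Bcl2l1 (27.7 ± 7.57), Bcl2l11 (25.7 ± 2.63), Bbc3 (22.6 ± 10.2) and Bad (12.0 ± 4.68). There too, only Mcl1 was separate from the gene ranked after it.

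**Figure D1:**
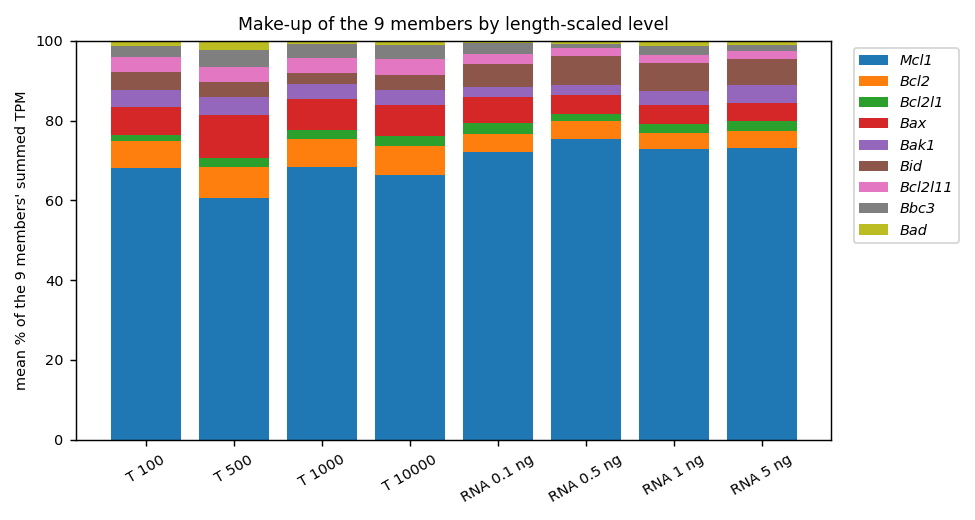
Stacked bars give each member's mean share of the 9 members' summed TPM (percent, y axis) in the 8 groups (x axis, T for T cells). Mcl1 held 60.6% at 500 T cells, the lowest group mean, and 75.4% at 0.5 ng RNA, and Bid held 3.62% over all T cell libraries and 6.64% over all RNA libraries.

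The balance between members was described by ratios and shares within each library. The ratio of Bcl2 to Mcl1 (TPM) was 0.111 ± 0.0148 in T cells (0.0820 to 0.136 over 12 libraries) and 0.0592 ± 0.00611 in RNA (0.0503 to 0.0725 over 11), with no overlap. Mcl1, Bcl2 and Bcl2l1 together made up 75.2 ± 3.79% of the members' TPM in T cells and 80.1 ± 1.51% in RNA. The lowest library for this share was at 64.5% among the T cells and 77.7% among the RNA. The ratio of Bcl2 to Bax, a survival gene to an executioner, overlapped (0.920 ± 0.218 in T cells, 0.881 ± 0.130 in RNA). The ratio of Bid to Bcl2 was 0.519 ± 0.312 in T cells and 1.54 ± 0.220 in RNA, where the lowest library was at 1.13. The highest T cell value of this Bid ratio, 1.37, was replicate 3 at 100 cells. Without that library the T cell ratio was 0.441 ± 0.167, with a highest value of 0.856, and did not overlap the RNA. These shares and ratios are descriptions whose values depend on the exon lengths used, and they were not tested.

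Comparing T cells with RNA at the same rank of input asks how the family differs between the T cells and the diluted RNA. Cells and ng are different units, so this pairing by rank is arbitrary and the paired amounts are not equivalent. Library totals differed as well, with 3401992 to 3627647 counts at 10000 cells and 6841726 to 7908638 at 5 ng. At the largest inputs, 10000 cells and 5 ng (n = 3 each), 8 of the 9 members passed the test. Bcl2, Bcl2l11 and Bbc3 were higher in T cells, and Bcl2l1, Mcl1, Bak1, Bid and Bad were lower. Over all 14425 genes tested 56% passed, 28.7% higher and 27.3% lower, so the members' count lies in a comparison where most genes differ. The members' median log2 fold change was -0.57 and that of all genes was 0.03. CPM did not overlap between the groups for 7 members (3 higher, 4 lower), against 61.4% of all genes (36.3% higher and 25.1% lower). In bulk libraries fewer cells of a type and less RNA per cell cannot be told apart, and here material and preparation cannot be told apart either. Fold changes use trimmed mean (TMM) scaling, under which log2 values of this comparison were 0.11 below those from library totals (median over 17 genes). With all 8 groups in 1 fit only Mcl1 and Bid passed here, and 22.7% of all genes. Throughout, "passed" and "called" refer to edgeR's adjusted p under 0.05 unless another tool is named.

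At lower inputs fewer members passed. Between 1000 cells and 1 ng it was 4 of 9 (40% of 12656 genes), with Mcl1, Bid and Bcl2l1 lower (20% of genes) and Bcl2l11 higher in T cells (20.1%). The groups did not overlap for 7 members, against 50.4% of genes. Between 500 cells and 0.5 ng it was 3 of 9 (37.1% of 13001 genes), with Mcl1 and Bid lower (18.1%) and Bbc3 higher (19%). For 5 members the groups did not overlap, against 48.8% of genes. Between 100 cells and 0.1 ng edgeR's quasi-likelihood test called 0 of 9, with 1 member (Mcl1) at an unadjusted p under 0.05, as were 15.7% of genes. DESeq2 and voomWithQualityWeights also called 0 there, with 5.09% and 2.71% of all genes. In edgeR 7 of 13073 genes passed (0.0535%). For 3 members the groups did not overlap, against 37.5% of genes. The change of each member's difference from the largest inputs to a lower one was tested as an interaction. In edgeR 0 of 27 tests passed (lowest adjusted p = 0.185, 2 at an unadjusted p under 0.05). Of all 18836 genes tested, 2 passed for the change to 1000 cells, 8 to 500 cells and 1476 to 100 cells. No other tool was run for these. A member that passed at one input and not at another is therefore not shown to differ between them.

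**Figure D2:**
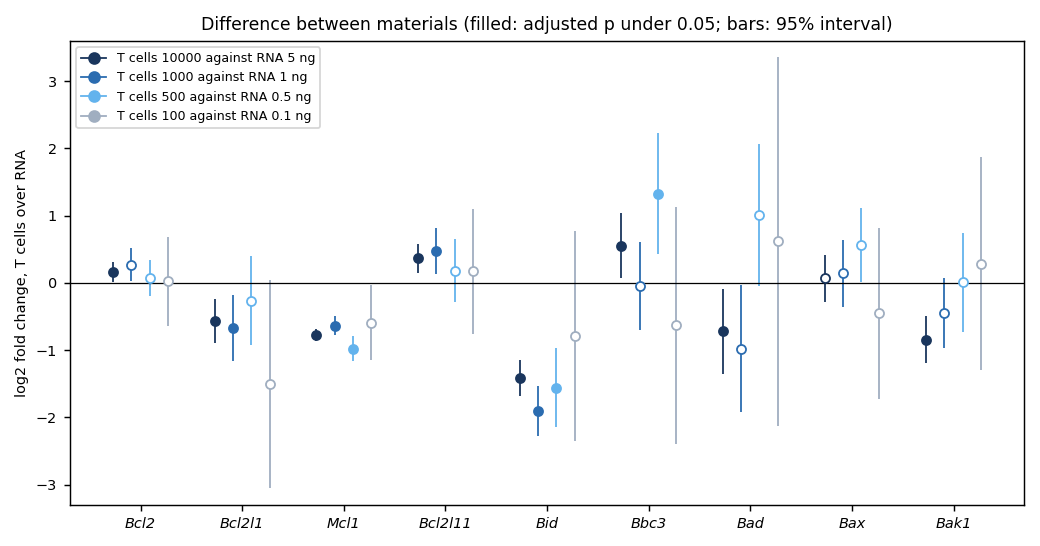
Points are log2 fold changes of T cells over RNA (y axis) for the 9 members (x axis) at 4 inputs paired by rank. Bars are 95% intervals from edgeR, and points are filled where its adjusted p was under 0.05. Mcl1 and Bid lie below 0 at all 4 inputs, and the intervals at 100 cells against 0.1 ng are the widest.

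Among the survival genes, Mcl1, a short-lived protein that restrains Bak and Bim, was lower in T cells at 10000, 1000 and 500 cells. At 10000 cells it lay at 583, 613 and 597 CPM and at 5 ng at 992, 914 and 944.5 CPM. Every T cell library was thus below every RNA library, and the log2 fold change was -0.78 (SE 0.0450, adjusted p = 2.05e-23). At 1000 cells it was 637.5, 601 and 672 CPM against 981, 942 and 1022 at 1 ng (log2 fold change -0.64, SE 0.0656, adjusted p = 2.20e-08). At 500 cells it was 587, 437 and 574 CPM against 1037, 1078 and 1017 at 0.5 ng (log2 fold change -0.98, SE 0.0898, adjusted p = 9.76e-09). The values at 100 cells were 619, 463 and 826 CPM, the highest in the replicate 3 that stood apart, and 992 and 948 CPM at 0.1 ng. Here the groups did not overlap either, but the difference did not pass (log2 fold change -0.59, SE 0.248, adjusted p = 0.297; without replicate 3 at 100 cells -0.82, adjusted p = 0.0541). Over all inputs the 12 T cell libraries (437 to 826 CPM) lay below the 11 RNA libraries (914 to 1078 CPM). The other members overlapped. The share of all genes without overlap over all inputs was not computed, so this separation cannot be set against it.

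Bcl2, the founding survival gene, was slightly higher in T cells. At 10000 cells it lay at 180, 183 and 175 CPM and at 5 ng at 143, 155 and 146 CPM, without overlap. The log2 fold change of 0.17 (SE 0.0732, adjusted p = 0.0491) was small and near the threshold, and the call was lost without any 1 of the 6 libraries (adjusted p 0.0599 to 0.264). At 1000 cells (157, 171 and 200 CPM against 132, 151 and 152 at 1 ng) the log2 fold change was 0.27 (SE 0.118, adjusted p = 0.0753; without replicate 1 at 1000 cells 0.33, adjusted p = 0.0340). At 500 and 100 cells it was 0.07 (SE 0.131) and 0.02 (SE 0.294), and neither passed. Over all libraries the ranges overlapped, from 147 to 201 CPM for T cells and from 132 to 193 for RNA.

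Bcl2l1, whose main product Bcl-xL supports activated and developing lymphocytes, was lower in T cells at the larger inputs. It lay at 27.3, 36.9 and 24.7 CPM at 10000 cells and 39.8, 43.9 and 38.8 CPM at 5 ng (log2 fold change -0.57, SE 0.163, adjusted p = 0.00227). At 1000 cells it was 19.9, 32.4 and 28.0 CPM against 41.0, 40.6 and 45.8 at 1 ng (log2 fold change -0.67, SE 0.239, adjusted p = 0.0271), and without replicate 1 at 1000 cells or replicate 3 at 1 ng it no longer passed (adjusted p = 0.102 and 0.0791). In both comparisons the groups did not overlap. At 500 and 100 cells the log2 fold changes were -0.26 (SE 0.317) and -1.50 (SE 0.687), and neither passed, and the groups did not overlap at 100 cells. The spread was wide at the lowest inputs, 8.32 to 26.0 CPM at 100 cells and 33.4 and 68.3 CPM at 0.1 ng.

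**Figure D3:**
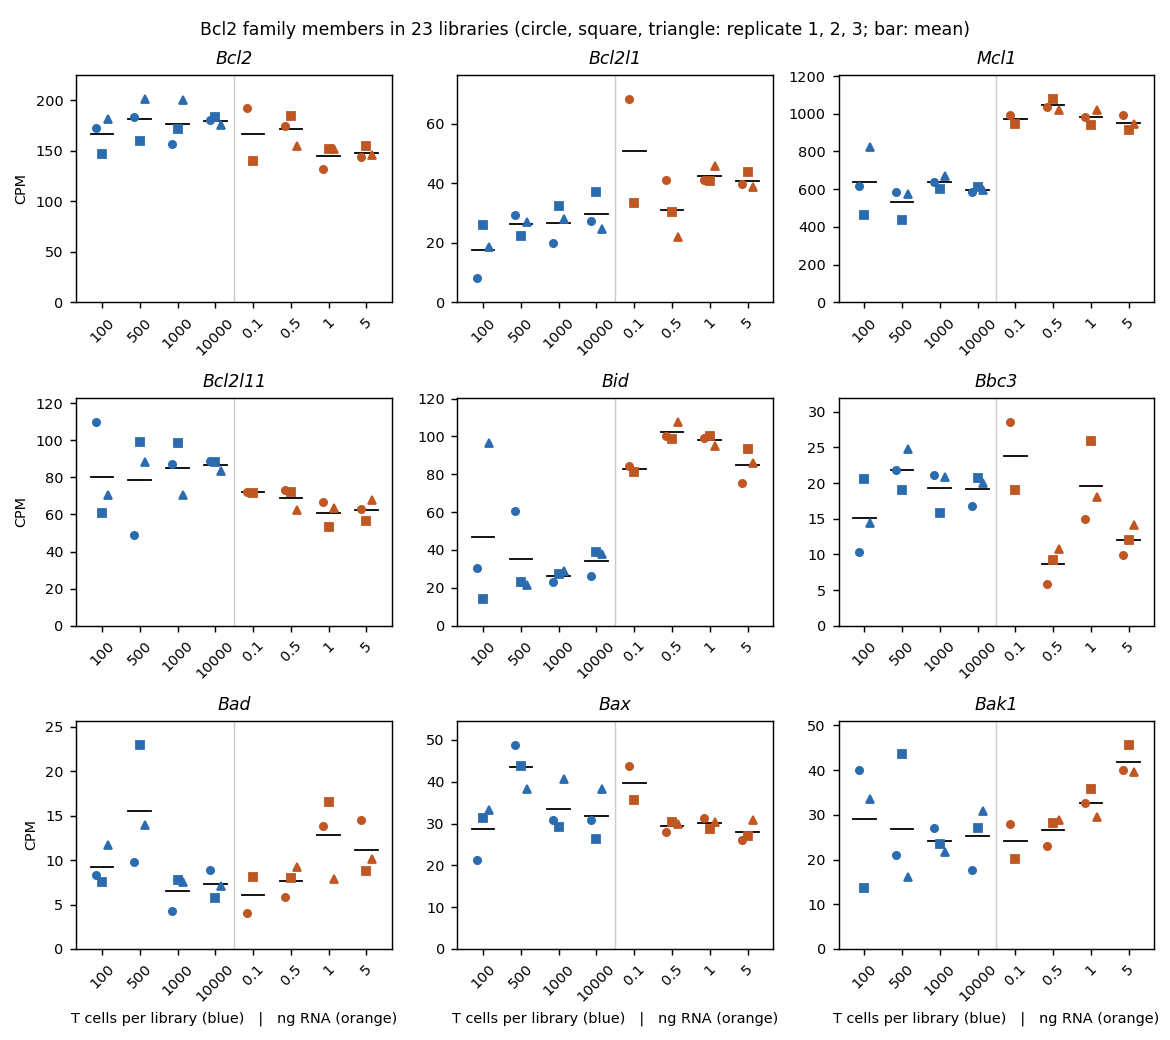
Each panel plots 1 member's CPM (y axis, from 0) in every library, by input (x axis: cells per library in blue, ng RNA in orange), with bars at the group means. Mcl1 in the T cell libraries (437 to 826 CPM) sits below all RNA libraries, and the triangle at 96.3 CPM in the Bid panel is replicate 3 at 100 cells.

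Among the BH3-only genes, Bid, which caspase-8 cuts to link death receptors to mitochondria, had the largest difference. It lay at 26.2, 38.9 and 37.6 CPM at 10000 cells and at 75.1, 93.3 and 85.7 CPM at 5 ng (log2 fold change -1.42, SE 0.133, adjusted p = 2.79e-14). At 1000 cells the values were 23.3, 27.3 and 28.8 CPM against 99.3, 100 and 94.95 at 1 ng (log2 fold change -1.90, SE 0.180, adjusted p = 5.00e-09). In both comparisons every T cell library was below every RNA library. At 500 cells the values were 60.7, 22.9 and 21.6 CPM against 100.2, 98.6 and 107.5 at 0.5 ng (log2 fold change -1.56, SE 0.284, adjusted p = 0.000156), again with no overlap although replicate 1 was above the others of its group. Without that replicate the log2 fold change was -2.23.

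At 100 cells Bid lay at 30.7 and 14.1 CPM in replicates 1 and 2 and at 96.3 CPM in replicate 3, against 84.6 and 81.2 CPM at 0.1 ng. Replicate 3 was above both RNA libraries of that comparison, and above the 14.1 to 60.7 CPM of the other 11 T cell libraries. The log2 fold change was -0.79 (SE 0.694, adjusted p = 0.631) with this library and -1.86 (adjusted p = 0.122) without it. Mcl1 was also highest there among the 12 T cell libraries (826 CPM, against 437 to 672), whereas the other 7 members lay within the range of the other 11. The same library carried the raised B cell, macrophage and neutrophil marker shares given above, and the part of those cells in its Bid and Mcl1 levels was not tested. Of 10 B cell markers 0 were at 0 counts in any T cell library, and of 11 macrophage markers 0 to 6 were.

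**Figure D4:**
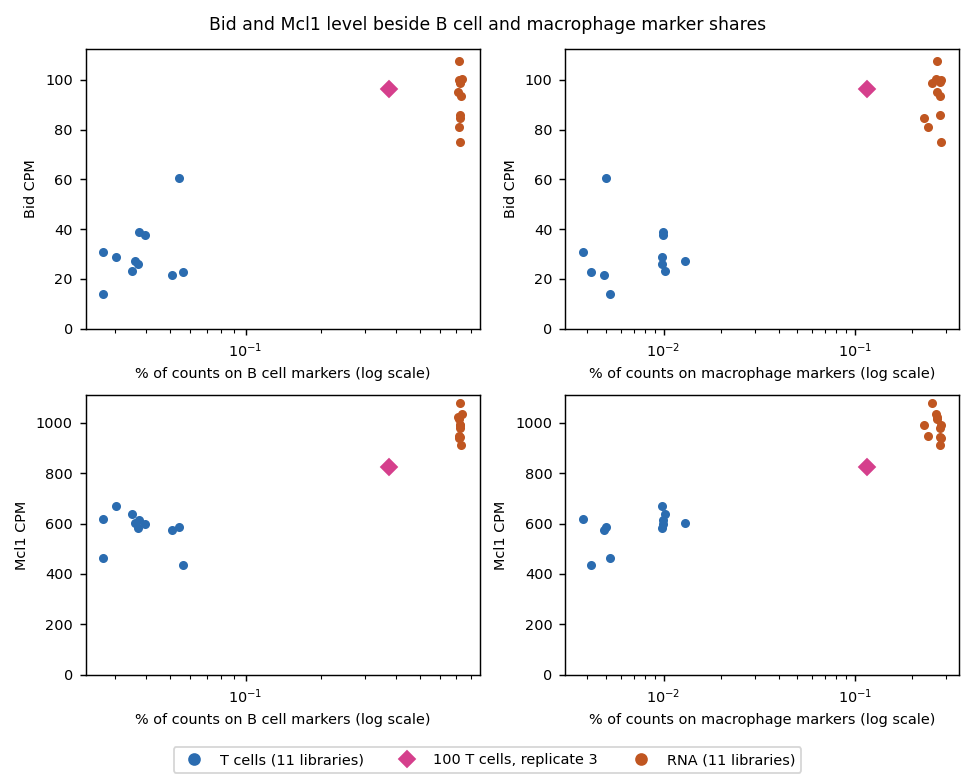
CPM of Bid (top) and Mcl1 (bottom) (y axes, from 0) is plotted against the percent of counts on B cell (left) and macrophage (right) markers (x axes, log scale), 1 point per library. Replicate 3 at 100 cells (diamond, 0.375% and 0.116%) lies between the other T cell libraries and the RNA on the x axes.

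Bid shares 628 of its 3550 exon bases with Bcl2l13 on the opposite strand, and the strand setting of the counting is not given in the sources used here, so reads there cannot be assigned with certainty. Bcl2l13 itself averaged 65.6 CPM over the T cell and 67.0 CPM over the RNA libraries, while Bid averaged 35.7 and 92.8 CPM. Opposite-strand exons also overlap Bad (524 bases, Gpr137, on average 13.3 CPM over T cell and 17.2 over RNA libraries), Bak1 (614 bases, Ggnbp1, 5.03 and 4.36) and Bcl2 (558 bases, D630008O14Rik, not analysed here).

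Mcl1 and Bid were the members called lower in T cells at 10000, 1000 and 500 cells alike, and the 250 bases before their RefSeq start (GRCm38.p6) are shown for that reason, with GC boxes (GGGCGG) and the ETS core (CCGGAAG) on either strand in capitals.
Mcl1, chr3:95658471-95658720, plus strand: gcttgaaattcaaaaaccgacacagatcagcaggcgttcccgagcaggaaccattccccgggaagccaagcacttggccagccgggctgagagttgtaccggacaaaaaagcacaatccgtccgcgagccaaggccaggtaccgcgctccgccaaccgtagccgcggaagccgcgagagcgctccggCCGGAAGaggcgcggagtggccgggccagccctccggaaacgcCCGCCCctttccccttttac
Bid, chr6:120916825-120917074, minus strand: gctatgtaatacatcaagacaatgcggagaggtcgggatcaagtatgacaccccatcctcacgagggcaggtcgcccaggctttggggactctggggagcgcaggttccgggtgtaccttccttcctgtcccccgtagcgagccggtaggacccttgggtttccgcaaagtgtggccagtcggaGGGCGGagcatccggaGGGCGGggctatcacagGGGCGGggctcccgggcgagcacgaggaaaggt
The Mcl1 window holds 1 GC box and 1 ETS core and the Bid window holds 3 GC boxes. Of 32851 RefSeq windows of this length, 32.7% hold a GC box and 6.91% an ETS core. Neither window holds TATAAA (12.4% of windows), CCAAT (33.9%), the E-box CACGTG (6.02%), the FOXO motif GTAAACA (3.17%), the STAT motif TTCNNNGAA (7.02%), TGACGTCA (1.55%), TGACTCA (4.46%) or the p53 motif (7.13%). Both are rich in G and C (64.4% and 63.6%, against a mean of 53.2%). These traits are not particular to members called lower in T cells. Of those called higher at 10000 cells, Bcl2 has 74.8% G and C with 7 GC boxes, and Bbc3 72.4 to 81.6% with 1 to 7. The Bcl2l11 windows have 72 and 73.2% with 3 and 2 GC boxes, and the first holds an ETS core. Of the other members called lower there, Bcl2l1 (47.6 to 53.2%) and Bak1 (58.4%) have no GC box, and Bad has 62.8 and 64.8% with 3 and 0. A link to the level was not tested.

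Bcl2l11, which encodes Bim and is needed for the death of cytokine-deprived and self-reactive T cells, was higher in T cells. It lay at 88.7, 88.5 and 83.2 CPM at 10000 cells and 63.1, 56.3 and 67.9 CPM at 5 ng, without overlap (log2 fold change 0.36, SE 0.109, adjusted p = 0.00371). The call was lost without replicate 2 at 5 ng (adjusted p = 0.0512). At 1000 cells it was 87.1, 98.3 and 70.3 CPM against 66.6, 53.2 and 63.3 at 1 ng (log2 fold change 0.47, SE 0.168, adjusted p = 0.0266). There it was lost without replicate 1 or 2 at 1000 cells or replicate 2 or 3 at 1 ng (adjusted p 0.0608 to 0.158), and without the filter on low counts (adjusted p = 0.0747). At 500 and 100 cells the log2 fold changes were 0.18 (SE 0.225) and 0.17 (SE 0.412), with ranges of 49.1 to 99.0 and 60.6 to 110 CPM in T cells, and neither passed.

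Bbc3, which encodes Puma, a p53 target, was called higher in T cells at 10000 and 500 cells. At 10000 cells it lay at 16.7, 20.7 and 20.0 CPM against 9.94, 12.0 and 14.2 CPM at 5 ng (log2 fold change 0.55, SE 0.240, adjusted p = 0.0455). The call was lost without replicate 2 or 3 at 10000 cells or replicate 1 or 2 at 5 ng (adjusted p 0.0957 to 0.180). At 500 cells it was 21.9, 19.0 and 24.8 CPM against 5.87, 9.22 and 10.8 at 0.5 ng (log2 fold change 1.33, SE 0.434, adjusted p = 0.0192), and it was lost without replicate 3 at 500 cells or replicate 1 at 0.5 ng (adjusted p = 0.0739 and 0.0802). In both comparisons T cells lay above RNA without overlap. At 1000 and 100 cells the log2 fold changes were -0.04 (SE 0.315) and -0.63 (SE 0.779), with overlapping groups, and neither passed. In the T cells Bbc3 stayed between 10.4 and 24.8 CPM, and in the RNA it ran from 5.87 to 28.5 CPM.

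Bad, the BH3-only protein that growth factor signals keep phosphorylated, was the lowest member. At 10000 cells it lay at 8.92, 5.79 and 7.06 CPM and at 5 ng at 14.5, 8.81 and 10.1 CPM. The groups overlapped, and the difference was just past the threshold (log2 fold change -0.72, SE 0.316, adjusted p = 0.0467). It was lost without replicate 2 or 3 at 10000 cells or replicate 1 or 3 at 5 ng (adjusted p 0.0590 to 0.246) and with voomWithQualityWeights (adjusted p = 0.0762). At 1000, 500 and 100 cells the log2 fold changes were -0.98 (SE 0.460), 1.01 (SE 0.509) and 0.62 (SE 1.22), and none passed. Without replicate 3 at 1 ng the 1000-cell difference passed (-1.25, adjusted p = 0.0475). Its 12 T cell libraries ran from 4.23 to 22.9 CPM, and its 11 RNA libraries from 4.08 to 16.5 CPM.

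Of the executioners, Bak1 was called at the largest inputs and Bax was not. Bax lay at 31.0, 26.2 and 38.2 CPM at 10000 cells and 26.2, 27.0 and 30.9 CPM at 5 ng (log2 fold change 0.07, SE 0.174, 95% interval -0.28 to 0.42, adjusted p = 0.768). Its log2 fold changes at 1000, 500 and 100 cells were 0.14 (SE 0.241), 0.56 (SE 0.264, adjusted p = 0.106) and -0.45 (SE 0.564), and none passed in edgeR. DESeq2 called Bax at 500 cells (adjusted p = 0.0449). Its CPM groups did not overlap at 500 cells, where T cells were above RNA, or at 100 cells, where they were below. Bak1, which Mcl1 and Bcl-xL restrain, lay at 17.6, 27.0 and 30.9 CPM at 10000 cells and 40.1, 45.5 and 39.6 CPM at 5 ng. The groups did not overlap (log2 fold change -0.84, SE 0.172, adjusted p = 2.69e-05). At 1000, 500 and 100 cells its log2 fold changes were -0.45 (SE 0.252, adjusted p = 0.163), 0.01 (SE 0.355) and 0.28 (SE 0.704), and none passed.

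The other question of the design was how far a level is kept when the input falls. Within T cells, 0 of 9 members were called between 100, 500 or 1000 cells and 10000 cells by edgeR, DESeq2 or voomWithQualityWeights. Over all genes edgeR called 0%, 3.21% and 3.27%, DESeq2 3.05%, 7.35% and 7.58%, and voomWithQualityWeights 1.48%, 4.07% and 3.49%. At an unadjusted p under 0.05 edgeR had 0, 1 and 0 members (12%, 16.6% and 15.4% of genes), the 1 being Bad at 500 cells (9.83, 22.9 and 14.0 CPM, log2 fold change 1.09, SE 0.434, adjusted p = 0.191). Bax and Bad at 500 cells lay above all libraries at 10000 cells, and 22.3% of all genes did not overlap in that comparison. Intervals were narrow for Bcl2 and Mcl1, which had the most counts per library (591 and 3028 on average). A narrow interval alone therefore does not show that their levels were kept better. At 500 against 10000 cells their log2 fold changes were 0.002 and -0.18, and neither passed. At 1000 against 10000 cells their 95% intervals ran from -0.22 to 0.20 and from -0.02 to 0.23 on the log2 scale. At 100 cells they ran from -0.44 to 0.22 and from -0.33 to 0.49, and Mcl1 itself lay between 463 and 826 CPM. For Bid the 100-cell interval was -0.83 to 1.77, and the log2 fold change of 0.47 (adjusted p = 0.787) became -0.64 (adjusted p = 0.391) without replicate 3. A slope over 12 libraries called 0 of 9 in edgeR (0.76% of all genes), with 0 unadjusted against 12.7% of genes. DESeq2 (2.16% of all genes) and voomWithQualityWeights (2.93%) also called 0.

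Within RNA, Bak1 was the 1 member with a call, lower at 0.5 than at 5 ng. Its levels were 28.0 and 20.2 CPM at 0.1 ng, 22.97, 28.1 and 28.9 at 0.5 ng, 32.7, 35.7 and 29.5 at 1 ng and 40.1, 45.5 and 39.6 at 5 ng. The 5 ng libraries were thus above all libraries of lower input. Of all genes 50.9%, 25.1% and 16.5% did not overlap between 5 ng and 0.1, 0.5 and 1 ng. The log2 fold change was -0.65 at 0.5 ng (SE 0.179, adjusted p = 0.0397), in a comparison where 5.09% of genes passed. It was lost without replicate 1 at 0.5 ng or any 1 of the 5 ng libraries (adjusted p 0.0738 to 0.233). The call was also lost with voomWithQualityWeights (adjusted p = 0.0576) and with all RNA groups in 1 edgeR fit (adjusted p = 0.361). At 0.1 ng the value was -0.84 (SE 0.268, adjusted p = 0.0913) and at 1 ng -0.35 (SE 0.155, adjusted p = 0.420). The slope per 10-fold more RNA was 0.51 (SE 0.164, adjusted p = 0.0712), and it passed with DESeq2 (adjusted p = 0.0189). Without replicate 1 at 0.1 ng it passed in edgeR as well (0.66, adjusted p = 0.0409).

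The other 8 members did not pass within RNA. At 0.1 ng edgeR called 0 of 9 (11.2% of all genes), with 1 unadjusted against 32.9% of genes. DESeq2 (20.1% of all genes) and voomWithQualityWeights (4.23%) also called 0 there. At 1 ng edgeR called 0 (0.0238%), with 2 unadjusted, Bak1 and Bbc3, against 10.4% of genes. DESeq2 (1.05%) and voomWithQualityWeights (0.333%) called 0 as well. The RNA slope called 0 in edgeR (5.68%), with 1 unadjusted against 24.3% of genes. For this slope DESeq2 called 1 (11.9%) and voomWithQualityWeights 0 (1.82%). Mcl1 at 0.5 ng, 1017 to 1078 CPM against 914 to 992 at 5 ng, had a log2 fold change of 0.13 (SE 0.0429, adjusted p = 0.0796) and passed with DESeq2 (adjusted p = 0.0114) and voomWithQualityWeights (adjusted p = 0.0178). The 0.1 ng group has 2 libraries, and without its replicate 2, which leaves 1 library assumed to vary like the 5 ng libraries, 6 members passed (54.4% of all genes), while without its replicate 1 only Bak1 did (52.8%). In the remaining library Bcl2 (193 CPM), Bcl2l1 (68.3), Bax (43.8) and Bbc3 (28.5) were the highest of all 11 RNA libraries.

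**Figure D5:**
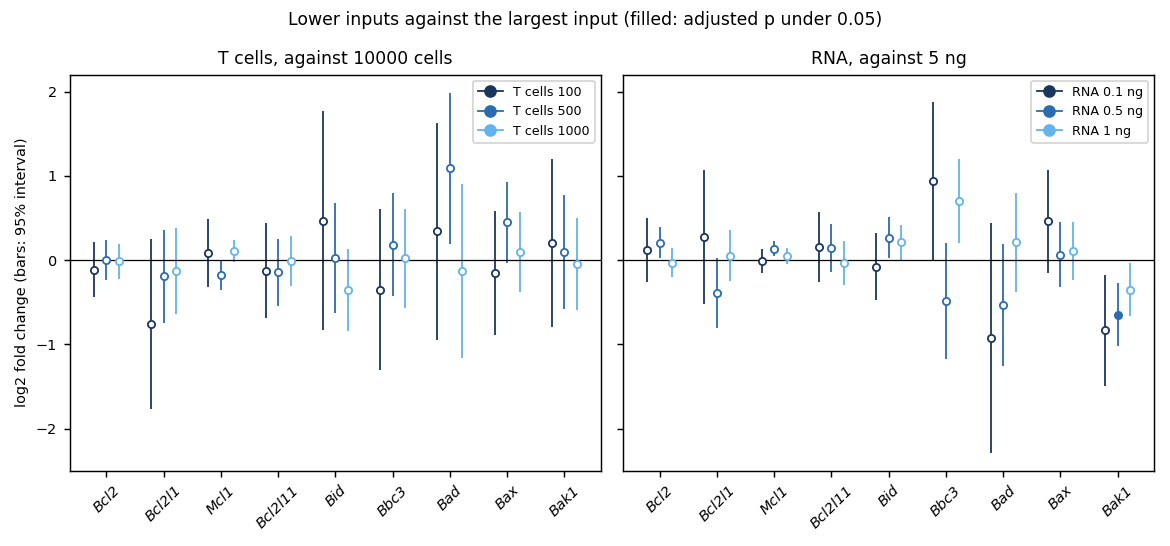
Points are log2 fold changes (y axis) of each lower input against 10000 cells (left) or 5 ng (right) for the 9 members (x axis), with 95% intervals, filled where the adjusted p was under 0.05. The filled point is Bak1 at 0.5 ng (-0.65), and Bad and Bid have the widest intervals in the T cells at 100 cells.

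The rest of the pathway was read from 4 lists chosen with earlier results of these data known. Of 16 further Bcl2 family genes 12 could be tested between 10000 cells and 5 ng; 8 were lower in T cells and 0 higher. The 12 had a median log2 fold change of -0.95, against 0.03 for all genes. Among those of at least 10 CPM the largest differences were in Bmf, a BH3-only gene linked to the cytoskeleton (6.24 ± 2.36 against 36.7 ± 1.42 CPM, log2 fold change -2.67, SE 0.233, adjusted p = 1.55e-15), Bcl2a1d (-2.20, SE 0.364) and Pmaip1, which encodes Noxa, the BH3-only partner of Mcl1 (-1.93, SE 0.258). Bcl2a1a, Bcl2a1b and Bcl2a1d are near-identical copies, so the count of each is uncertain. Summed over 3 libraries, Bcl2a1a had 5 counts at 10000 cells and 122 at 5 ng, and Bcl2a1b had 16 and 156.

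Among 19 genes of the apoptosome, the caspases and the mitochondrial effectors, 11 were lower in T cells and 0 higher, with a median of -0.54. In this comparison 27.3% of all genes were lower and 28.7% higher. Birc3, an inhibitor of apoptosis protein, lay at 107 ± 12.8 CPM at 10000 cells and 264 ± 1.45 CPM at 5 ng (log2 fold change -1.41, SE 0.0753). Lower as well was Casp9, the caspase that the apoptosome activates (-1.02, SE 0.174).

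Upstream regulators went both ways, 7 higher and 6 lower of 17, with a median of -0.05. Il7r, the interleukin-7 receptor chain, lay at 592 ± 28.8 CPM at 10000 cells and 182 ± 8.33 CPM at 5 ng (log2 fold change 1.59, SE 0.0559). Foxo1, a factor of resting T cells, was at 594 ± 29.0 and 312 ± 14.5 CPM (0.82, SE 0.0525), and Stat5a, which acts below interleukin-7, rose by 0.66 (SE 0.103). Dynll2, a dynein light chain known to tether Bmf, was lower (-1.13, SE 0.184), as were Usp9x, which removes ubiquitin from Mcl1 (-0.54, SE 0.0662), and Akt1 (-0.51, SE 0.0793). Of 6 death receptor genes 4 were higher and 1 lower. Tnfrsf10b rose by 1.18 (SE 0.347), Fas by 0.56 (SE 0.185) and Casp8, the protease that cuts Bid, by 0.35 (SE 0.0806), while the adaptor Fadd had a log2 fold change of -0.78 (SE 0.257).

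At 1000 cells against 1 ng the lower and higher calls were 7 and 0 of 11 tested family genes, 7 and 0 of 18 effectors, 4 and 4 of 17 upstream regulators and 0 and 3 of 6 death receptor genes. Of all genes 20% were lower and 20.1% higher there. At 500 cells against 0.5 ng they were 4 and 0 of 12, 5 and 0 of 18, 4 and 5 of 17 and 0 and 2 of 6, beside 18.1% and 19% of all genes. At 100 cells against 0.1 ng edgeR called none of these genes. Il7r was higher at 1000 and 500 cells (1.96, SE 0.0794, and 1.66, SE 0.105), and Pmaip1 was lower (-2.47, SE 0.474, and -2.22, SE 0.434). Casp9 was lower at both (-1.69, SE 0.312, and -1.01, SE 0.356), as was Birc3 (-1.14, SE 0.117, and -1.62, SE 0.126). Bmf was lower at 500 cells (-3.45, SE 0.514). Bcl2a1a had 2 counts over the 3 libraries at 1000 cells against 78 at 1 ng, and 0 over those at 500 cells against 79 at 0.5 ng.

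Within a material the calls among the 4 lists stand beside the share of all genes called in each comparison. That share was 3.21% at 500 and 3.27% at 1000 against 10000 cells. In the RNA it was 11.2% at 0.1 ng and 5.09% at 0.5 ng against 5 ng, and 5.68% for the slope. Whether the lists differ from these shares was not tested. Huwe1, a ubiquitin ligase of Mcl1, was at 819 ± 50.5 CPM at 10000 cells and lower at 500 (566 ± 42.2 CPM, log2 fold change -0.54, SE 0.0700) and 1000 cells (547 ± 63.1 CPM, -0.57, SE 0.0680). Il7r was higher at 1000 cells by 0.26 (SE 0.0611). Between 0.1 and 5 ng RNA, Bik, a BH3-only gene, was higher (20 and 28 counts in the 0.1 ng libraries, 2 to 8 at 5 ng; log2 fold change 4.07, SE 0.792, adjusted p = 0.0340), and so was Mdm2 (0.71, SE 0.125). Vdac1 (-1.20, SE 0.187), Pim1 (-1.14, SE 0.258) and Ripk1 (-0.88, SE 0.168) were lower there. At 0.5 ng Xiap (0.31, SE 0.0815) and Birc3 (0.29, SE 0.0670) were higher than at 5 ng, and Usp9x (-0.49, SE 0.0985) and Akt1 (-0.33, SE 0.0890) were lower. Mdm2 also had a slope of -0.42 (SE 0.0978) per 10-fold more RNA.

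Genes whose level followed that of each member were sought among 7475 genes with a mean of at least 20 CPM. Symbols of predicted genes, Rik and numbered clones, microRNAs and small nucleolar RNAs had been left out. The closest genes were found by Pearson's correlation of log2(CPM + 1) over the 23 libraries. For Mcl1 they were Adgre1, Lair1 and Mpeg1 (r = 0.973, 0.970 and 0.967), and for Bid they were Tgm2, Ccr3 and Ly86 (0.953, 0.952 and 0.950). These values follow the split between T cells and RNA, and replicate 3 at 100 cells, so they describe these libraries. Bcl2 was matched less closely, by Insr, Ndfip2 and Sntb2 (0.760, 0.754 and 0.724). Bcl2l1 went with Dnttip2, Nrm and Vps33a (0.857, 0.845 and 0.838), and Bcl2l11 with Snapc4, Llgl2 and Tmem201 (0.764, 0.747 and 0.718). For Bax the genes were Actr6, Zhx2 and Ing2 (0.773, 0.743 and 0.740), and for Bak1 they were Dicer1, Kpnb1 and March2 (0.673, 0.659 and 0.659). Bbc3 and Bad averaged under 100 counts per library and were left out.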

How the data were processed

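Poly(A) RNA was sequenced from 12 T cell and 11 diluted RNA libraries. The authors deposited 1 table of raw counts for 22488 gene symbols, without normalization; per the submitters' processing notes they used HISAT2 2.1.0, featureCounts and the build mm8. Between 57.9% and 70.7% of nonzero counts were even, so mates may have been counted singly, and counts are not independent molecules. TPM used exon lengths from GENCODE M21 (99.6% of symbols matched), and 9 of 9 members had a RefSeq promoter entry.

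Groups were compared with edgeR 4.0.16 (R 4.3.3): TMM factors, filterByExpr and quasi-likelihood tests on just the libraries being compared. P-values were adjusted by Benjamini-Hochberg over every gene fitted, and those under 0.05 were called. SE and 95% intervals come from these fits. Alternatives were DESeq2 1.42.0, its size factors in edgeR, no filter, the replicate number as a block, 1 fit over all groups, voomWithQualityWeights (limma 3.58.1), TMM-scaled CPM and leaving out each replicate. Scripts were tested on simulated data. The members and lists were chosen with earlier results of these data known. Named list genes were up to 3 of the largest calls each way per comparison, at the largest inputs only from genes averaging 10 CPM or more where they were higher; Bcl2a1b was named after its values were seen. One gene that this rule names is not reported here.

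Replicate numbers did not pair the libraries: residuals of the 77 pairs that share a number correlated between -0.0316 and 0.0244, 0 of them above 0.1. No 2 replicates agreed within counting noise.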

Additional observations from a re-analysis of the deposited data

How the results depend on the processing

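Of 108 changes of the 9 members 16 passed, and 1297 of 1359 alternative values kept their side of the threshold; 43 lost and 19 gained a call. A change of sign was counted only where a value passed: 98 signs changed, and 0 of those passed in either setting. Mcl1 and Bid stayed lower and past the threshold under all 12 alternatives at 10000, 1000 and 500 cells. The count of called members is given here with the share of all genes called under the same setting. With all groups in 1 fit it was 2 at 10000 cells against 5 ng (22.7%), 2 at 1000 cells against 1 ng (24.9%), 2 at 100 cells against 0.1 ng (22.3%), 1 at 0.1 against 5 ng (24.3%) and 0 at 0.5 against 5 ng (0.244%). DESeq2 gave 4 at 500 cells against 0.5 ng (37.4%), 2 at 0.5 against 5 ng (10.5%) and 1 for the RNA slope (11.9%), and voomWithQualityWeights gave 7 at 10000 cells against 5 ng (57.2%). Leaving out 1 replicate gave 5 to 7 at 10000 cells against 5 ng (51.1 to 52.9%), 3 to 4 at 1000 cells against 1 ng (36 to 38%), 2 to 3 at 500 cells against 0.5 ng (31.7 to 33.8%), 0 to 6 at 0.1 against 5 ng (0 to 54.4%), 0 to 1 at 0.5 against 5 ng (1.37 to 6.01%) and 0 to 1 for the RNA slope (3.08 to 6.22%). The replicate numbers do not pair the libraries, and with the replicate block the counts were 6 at 10000 cells against 5 ng (53.9%) and 2 at 100 cells against 0.1 ng (8.88%; Mcl1, adjusted p = 0.000356, and Bid, adjusted p = 0.0305). Without the filter 6 members were called at 10000 cells against 5 ng (46.5%), without Bcl2 (adjusted p = 0.497) and Bbc3 (adjusted p = 0.118), and 3 at 1000 cells against 1 ng (31.9%), without Bcl2l11 (adjusted p = 0.0747). The cause of these moves was not tested. TMM-scaled CPM moved 5 of 72 group means by more than their SD. Leaving replicate 3 at 100 cells out of the TPM levels and ratios was chosen after seeing the data. Bad (36.4) and Bbc3 (57.6) had the fewest counts per library.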
